A study of Mus musculus with 12 samples.

Results

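Small nucleolar RNAs (snoRNAs) and small Cajal body RNAs (scaRNAs) were followed on 12 expression arrays of mouse embryonic stem cells in 4 groups. The genes were chosen by name: every gene with a symbol starting with Snora, Snord or Scarna that had a probe set annotated to that symbol alone. This gave 78 of the 22180 genes measured in the same way, with 81 probe sets between them; for the 3 genes with more than 1 probe set (Scarna17, Snora19 and Snora33) the probe set of highest mean signal was used. By name, 26 were H/ACA RNA genes (Snora), 47 were C/D RNA genes (Snord) and 5 were scaRNA genes (Scarna). A further 46 probe sets named such a gene together with other symbols and were left out. None of the 78 belonged to the large imprinted tandem clusters (Snord113 to Snord116).

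Each group had 3 arrays. All 12 samples were embryonic stem cells with a tdTomato reporter driven by MERVL, a retroviral element active in cells that resemble the 2-cell embryo. The groups were the parental reporter cells (called parental here), reporter cells in which the genes for the chromatin proteins Dppa2 and Dppa4 had been knocked out (KO), and KO cells given plasmids for GFP-tagged Dppa2 and Dppa4, either wild type (KO+WT) or unable to be modified by SUMO (KO+Mut). The add-back cells were lipofected and sorted for GFP. The labels mention neither step for the parental and KO cells, so a difference between an add-back and either of them cannot be told apart from an effect of transfection or sorting. Of the comparisons that include an add-back, only that of KO+Mut with KO+WT had matched handling. Between parental and KO cells the labels state no difference in these steps. All cells were grown on gelatin in serum replacement medium with LIF. The samples are labelled as biological replicates with nothing more said of their origin, so the p-values below measure the spread between these samples. Whether the KO cells were 1 clone was not stated.

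Depth does not apply to arrays, and the number of arrays limits the precision. The arrays had median log2 signals of 3.73 to 3.88, every pair of arrays correlated at 0.976 to 0.994 across genes, and no pair held identical values. Dppa2 had mean log2 signals of 9.77 ± 0.41 in parental, 8.48 ± 0.31 in KO, 11.08 ± 0.28 in KO+WT and 11.20 ± 0.09 in KO+Mut cells (SD, n = 3). The corresponding values of Dppa4 were 8.46 ± 0.19, 7.62 ± 0.30, 10.39 ± 0.26 and 10.54 ± 0.14. Both genes thus had higher signals in the add-backs than in parental cells, so the add-backs went beyond the parental level. In KO cells both signals were lower than in parental cells (limma adjusted p = 0.0259 for Dppa2 and 0.102 for Dppa4). They stayed above the upper quartile of all genes (6.41). The 10 embryonic stem cell markers measured had mean signals of 8.42 to 8.69 on every array, and none of them passed the test in any comparison.

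Most snoRNAs of mammals are cut from the introns of other genes, called host genes, after splicing, and are protected by the proteins that bind them. H/ACA RNAs carry dyskerin (Dkc1) and direct the conversion of uridine to pseudouridine, whereas C/D RNAs carry fibrillarin (Fbl) and direct 2′-O-methylation. Their main substrate is ribosomal RNA, which is made and modified in the nucleolus, and a few take part in its cleavage instead. The scaRNAs use the same 2 kinds of machinery in Cajal bodies, where they guide modification of the spliceosomal small nuclear RNAs. Embryonic stem cells divide quickly and make many ribosomes.

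The 78 genes gave strong signals for this array: 72 had a mean above the median of all genes (4.37 on the log2 scale), 52 were above the upper quartile (6.41), and 1 was below the lower quartile (2.80). Without detection calls a low signal cannot be separated from background, which concerns Snord90 most, at a mean of 2.18. Array signals of different probe sets are not comparable as levels, so all comparisons below are of one gene between groups. In bulk RNA, fewer cells of a type cannot be told apart from less RNA per cell. In the RefSeq gene table the C/D genes spanned 48 to 221 bases (median 68.0), the H/ACA genes 56 to 205 (median 118.5) and the scaRNA genes 61 to 248 (median 71.0).

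Taken as classes, H/ACA RNAs had lower signals in both add-back groups than in parental and KO cells. The mean log2 signal of the 26 H/ACA genes was 7.35, 7.02 and 7.14 on the parental arrays and 7.23, 7.04 and 7.23 on the KO arrays. It was 6.63, 6.82 and 6.53 on the KO+WT arrays and 6.74, 6.68 and 6.76 on the KO+Mut arrays. All 6 add-back arrays were thus below all 6 of the others, while parental and KO arrays overlapped and so did the add-back groups. For the 47 C/D genes the means were 7.91, 7.74 and 7.58 in parental, 7.95, 7.65 and 7.56 in KO, 7.61, 7.67 and 7.19 in KO+WT cells, and 7.76, 7.58 and 7.46 in KO+Mut cells. These 4 groups overlapped, and the lowest value was that of KO+WT replicate 3. The C/D mean fell with the replicate number in parental, KO and KO+Mut cells. Within replicates 1 and 3 both add-backs were below parental and KO cells. Replicate 2 had KO+Mut below them too, and KO+WT at 7.67 between KO at 7.65 and parental at 7.74. The 5 scaRNA genes averaged 7.63 ± 0.18, 7.76 ± 0.18, 7.66 ± 0.26 and 7.73 ± 0.22 (SD, n = 3) in the same order of groups, which also overlapped. Genes of a class share arrays and are not replicates, so these class values carry no test.

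**Figure D1:**
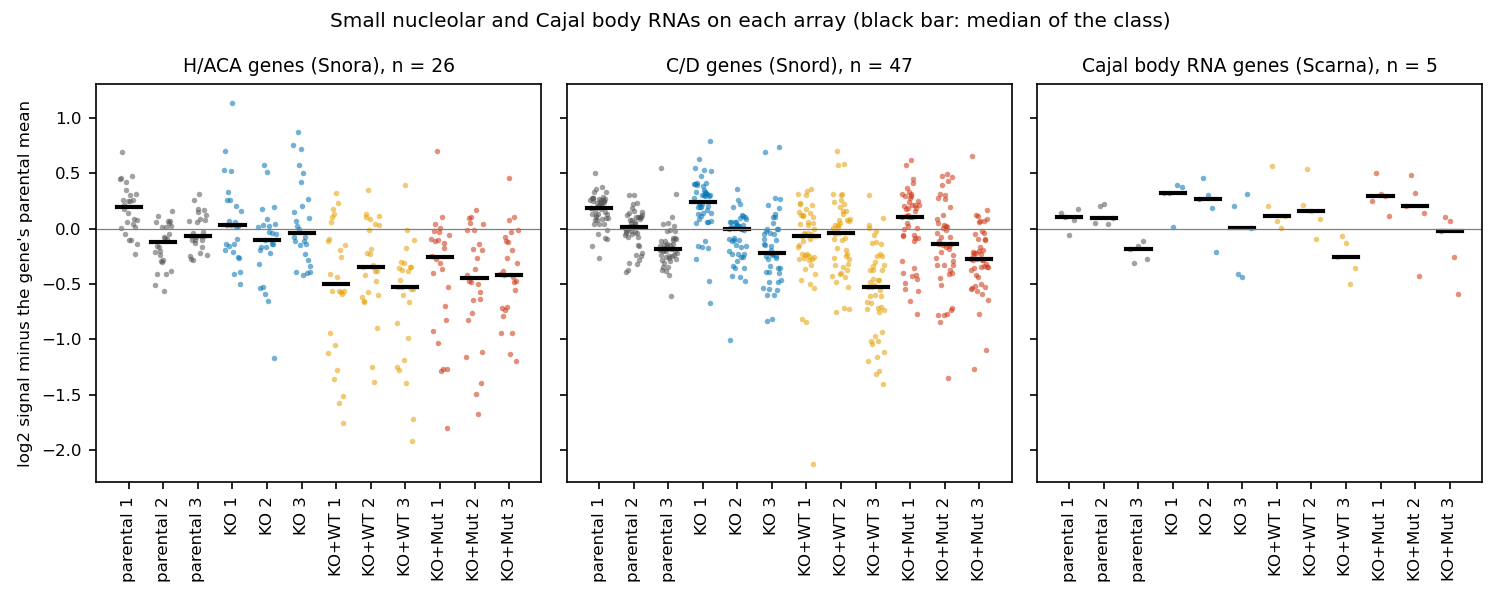
Log2 signal of each H/ACA, C/D and scaRNA gene minus that gene's mean over the parental arrays, for each of the 12 arrays; points are genes and black bars are the class medians. The H/ACA medians lie at -0.53 to -0.26 on the add-back arrays and at -0.12 to 0.19 on the parental and KO arrays, whereas the C/D medians of the groups overlap. Compared within each replicate number, the C/D medians are lower in both add-backs than in parental and KO cells.

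Counted gene by gene, 7 of the 26 H/ACA genes had all 6 add-back arrays below all 6 parental and KO arrays: Snora20, Snora44, Snora61, Snora62, Snora68, Snora73b and Snora74a. Of the 47 C/D genes only Snord52 did, and of the 5 scaRNA genes 0 did. Of all genes measured, 1.51% had this separation. No gene of the 3 classes had all add-back arrays above the others.

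The comparison of KO with parental cells addressed what loss of Dppa2 and Dppa4 does to these RNAs. No gene of the 78 passed the test: limma called 0 at an adjusted p under 0.05, against 0.239% of all genes called in either direction. The median log2 difference was -0.07 over the H/ACA, -0.01 over the C/D and 0.13 over the scaRNA genes, against 0.00 over all genes. At an unadjusted p under 0.05 there were 2 genes, both higher in KO cells, against 6.94% of all genes in either direction. Of all 22180 genes, 666 were higher at this p. The signals of the 2 groups did not overlap for 6 of the 78 genes, 3 lower and 3 higher, against 12.9% of all genes.

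The 2 genes were among the weakest. Snord90, a C/D RNA, read 1.94, 2.06 and 1.86 in parental and 2.74, 2.06 and 2.69 in KO cells. These groups touch at 2.06, and the log2 difference was 0.54 (limma SE 0.17, adjusted p = 0.383). Snora35, an H/ACA RNA that lies within the serotonin receptor gene Htr2c, read 3.42, 3.00 and 3.43 in parental and 4.42, 3.79 and 3.70 in KO cells. Its groups did not overlap, and the difference was 0.68 (SE 0.22, adjusted p = 0.453). The gene with the next smallest p was Snord19, at -0.47 (SE 0.22, adjusted p = 0.722). Snora73b had a difference of -0.22 (SE 0.11, adjusted p = 0.783) and Snora75 one of -0.52 (SE 0.34, adjusted p = 0.895). Snord88c completed the C/D genes of smallest p with -0.36 (SE 0.18, adjusted p = 0.78).

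Adding back wild-type Dppa2 and Dppa4, to signals above the parental ones, addressed whether these RNAs differ in KO cells given the proteins. In KO+WT compared with KO cells 2 genes fell, both of the H/ACA class: Snora74a and Snora62. They were 2 of 78 genes, against 0.0992% of all genes that fell. The median log2 difference was -0.42 over the 26 H/ACA genes, 23 of which were lower, and -0.16 over the 47 C/D genes, 37 of which were lower. It was -0.11 over the 5 scaRNA genes and 0.00 over all genes. At an unadjusted p under 0.05 there were 25 of the 78 genes, all lower (14 H/ACA, 10 C/D and 1 scaRNA), against 12% of all genes in either direction. Of all 22180 genes, 1053 were lower at this p. The KO+WT arrays were all below the KO arrays for 10 H/ACA, 7 C/D and 1 scaRNA genes, against 7.43% of all genes.

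With the SUMO-deficient proteins, 2 genes fell in KO+Mut compared with KO cells, Snora74a and Snora62, against 0.153% of all genes that fell. The median difference was -0.39 over the H/ACA genes, with 23 of 26 lower, -0.09 over the C/D genes, with 31 of 47 lower, and -0.12 over the scaRNA genes, against -0.01 over all genes. At an unadjusted p under 0.05 there were 19 genes, all lower (14 H/ACA, 4 C/D and 1 scaRNA), against 12.5% of all genes in either direction. Of all 22180 genes, 1218 were lower at this p. The KO+Mut arrays were all below the KO arrays for 10 H/ACA, 5 C/D and 0 scaRNA genes, against 8.77% of all genes. The 2 add-back comparisons share the KO arrays and are therefore not independent of each other.

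**Figure D2:**
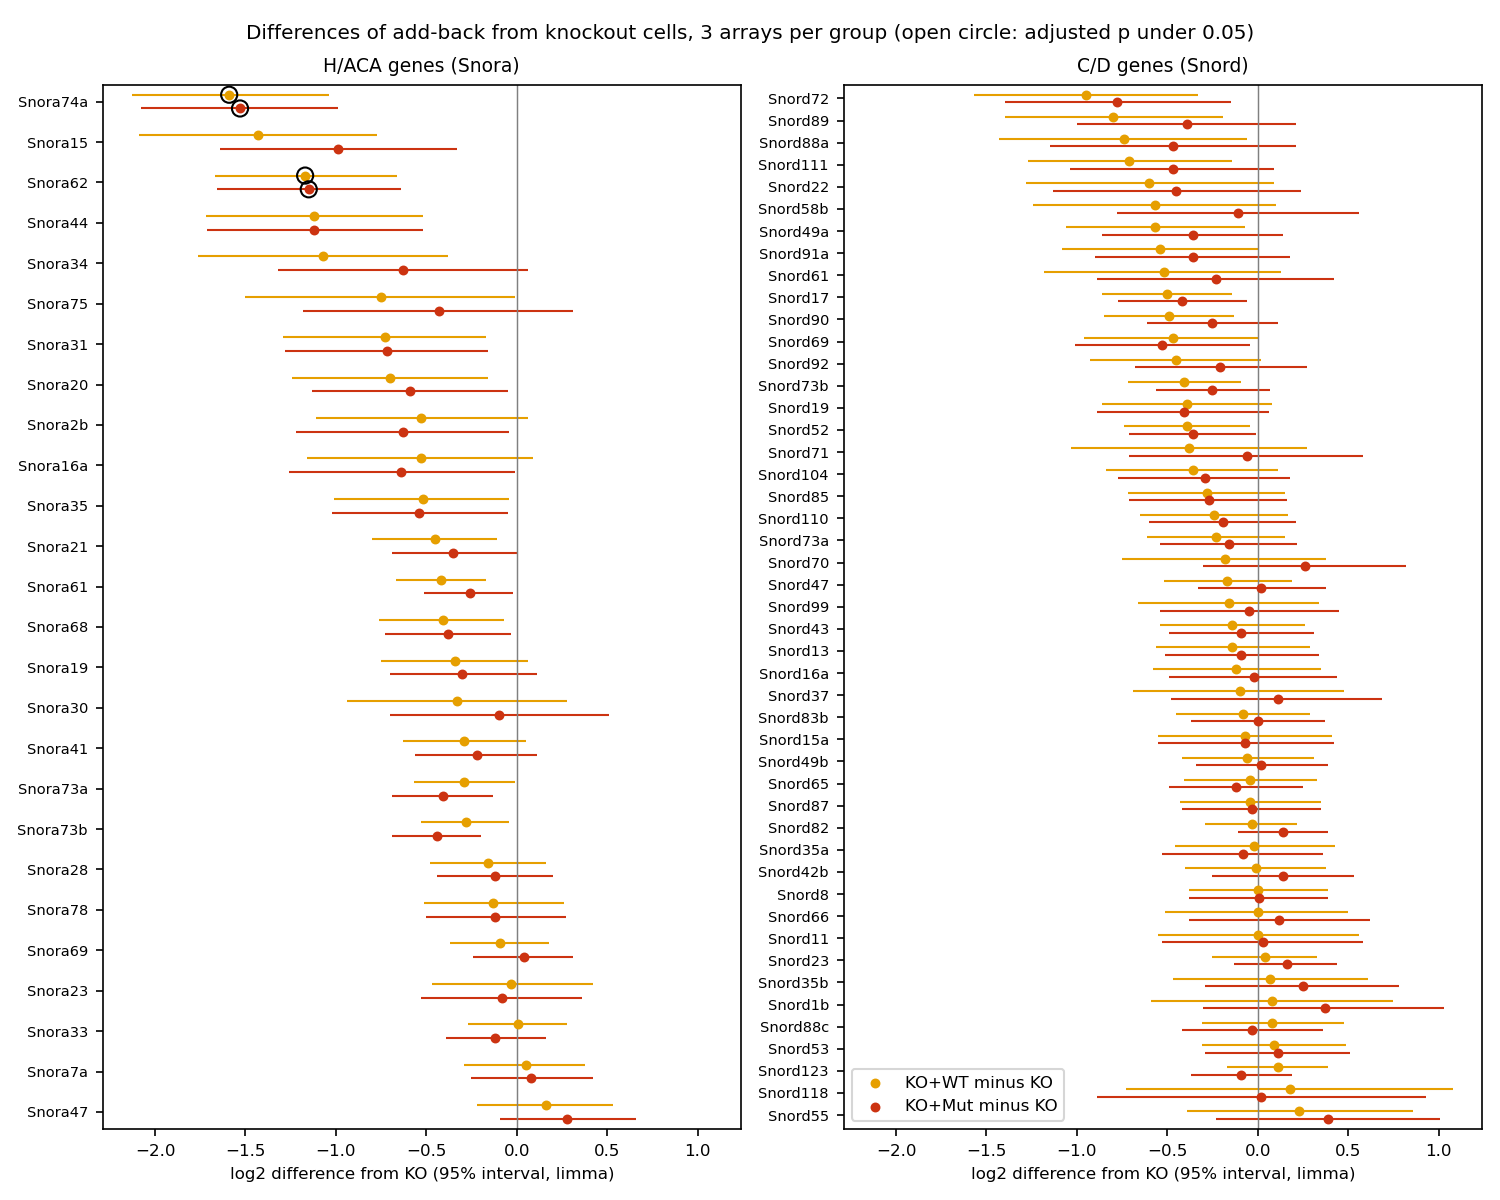
Log2 difference of KO+WT (orange) and KO+Mut (red) from KO cells for each H/ACA gene (left) and each C/D gene (right), with 95% limma intervals, 3 arrays per group; open circles mark an adjusted p under 0.05. Snora74a and Snora62 are the circled genes, at -1.59 and -1.17 for KO+WT and at -1.53 and -1.15 for KO+Mut, and no C/D gene is circled.

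Snora74a is an H/ACA RNA within Snhg4, a long noncoding gene. It read 6.81, 7.11 and 7.21 in parental, 6.78, 7.24 and 7.31 in KO, 5.29, 6.15 and 5.13 in KO+WT cells, and 5.24, 5.65 and 5.85 in KO+Mut cells. All 6 add-back arrays were below all the others, with KO+WT replicate 2 the highest of them. Compared with KO cells the log2 difference was -1.59 in KO+WT (limma SE 0.25, adjusted p = 0.00893) and -1.53 in KO+Mut cells (SE 0.25, adjusted p = 0.00846). The first call was lost without KO replicate 2 (adjusted p = 0.0525), without KO replicate 3 (0.0546) and when only the 6 arrays compared were fitted (0.0583). The second was kept in each of the 6 fits that left out 1 array, with adjusted p of 0.0124 to 0.0459.

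Snora62 lies within Rpsa, the gene of a ribosomal protein. It read 9.32, 8.43 and 8.78 in parental, 8.86, 8.62 and 8.61 in KO, 7.27, 7.46 and 7.86 in KO+WT cells, and 7.58, 7.17 and 7.90 in KO+Mut cells. Again every add-back array was below every parental and KO array. The difference from KO cells was -1.17 in KO+WT (SE 0.23, adjusted p = 0.0386) and -1.15 in KO+Mut cells (SE 0.23, adjusted p = 0.0309). With 1 array left out, the first call was kept only without KO+WT replicate 3. It had an adjusted p of 0.13 without KO replicate 1, 0.104 without KO replicate 2, 0.105 without KO replicate 3, 0.125 without KO+WT replicate 1 and 0.127 without KO+WT replicate 2, and 0.06 after a repeated quantile normalization. The second was kept only without KO+Mut replicate 3, and its adjusted p was 0.114, 0.0873 and 0.0844 without KO replicates 1, 2 and 3, 0.0867 without KO+Mut replicate 1 and 0.151 without KO+Mut replicate 2. Its difference stayed at -1.19 to -0.96 in those fits.

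Other H/ACA genes had differences of similar size that missed the threshold. Snora15, which lies within the chaperonin gene Cct6a, read 7.59, 7.08 and 7.82 in KO, 5.94, 6.45 and 5.81 in KO+WT cells, and 6.97, 5.90 and 6.65 in KO+Mut cells. Both add-back groups were below the KO arrays, but parental cells, at 7.51, 6.55 and 7.13, overlapped KO+Mut cells. The difference from KO was -1.43 in KO+WT (SE 0.30, adjusted p = 0.0501) and -0.99 in KO+Mut cells (SE 0.30, adjusted p = 0.171). The first of these passed the threshold in 5 alternatives that did not use the replicate number, such as median centring (adjusted p = 0.0438). It also passed in a limma fit that blocked on the replicate number (adjusted p = 0.0349), which called 0.636% of all genes lower.

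Snora44 is 1 of 4 genes of this collection within Snhg12. It read 8.69, 7.88 and 8.75 in parental, 8.03, 7.79 and 8.94 in KO, 7.16, 7.19 and 7.05 in KO+WT cells, and 7.15, 6.95 and 7.31 in KO+Mut cells. The add-back groups were tightly grouped below the rest, whereas parental and KO arrays were spread over more than 1 log2 unit. The difference from KO was -1.12 in KO+WT (SE 0.28, adjusted p = 0.0984) and -1.12 in KO+Mut cells (SE 0.28, adjusted p = 0.0793). The second passed in the limma fit that blocked on the replicate number (adjusted p = 0.0307), which called 1.06% of all genes lower.

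Against parental cells, which carry their own Dppa2 and Dppa4, the calls were again in the H/ACA class. In KO+WT cells Snora74a and Snora62 fell, against 0.23% of all genes that fell. In KO+Mut cells Snora73b, Snora74a, Snora62 and Snora44 fell, against 0.338% of all genes. No C/D or scaRNA gene passed the test, and none of the 78 genes rose. The median difference of KO+WT from parental cells was -0.42 over the H/ACA genes, with 25 of 26 lower, -0.14 over the C/D genes, with 42 of 47 lower, and 0.03 over the scaRNA genes. In KO+Mut cells the medians were -0.36, -0.09 and 0.14, with 22 H/ACA and 30 C/D genes lower, and over all genes both medians were 0.00.

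At an unadjusted p under 0.05 there were 25 of the 78 genes in KO+WT cells (14 H/ACA and 11 C/D), all lower, against 10.7% of all genes in either direction. In KO+Mut cells there were 16 (10 H/ACA and 6 C/D), all lower, against 11.5%. Of all 22180 genes, 1038 were lower at this p in KO+WT and 1225 in KO+Mut cells. Groups did not overlap, with the add-back lower, for 15 H/ACA and 12 C/D genes in KO+WT cells, against 7.8% of all genes, and for 14 H/ACA and 6 C/D genes in KO+Mut cells, against 9.38%. Replicate numbers were taken to pair the samples of these 2 comparisons. A fit that blocked on the number called 8 genes lower for KO+WT and 7 for KO+Mut cells, against 0.996% and 1.54% of all genes called lower in the same fit, so that calls became more frequent over all genes too. Those 8 were Snora44, Snora62, Snora73b, Snora74a, Snord19, Snord52, Snord73b and Snord92. The 7 were Snora44, Snora62, Snora73a, Snora73b, Snora74a, Snord19 and Snord52. The C/D genes among them were not called in the fit without the block that gives the main values.

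Snora73b and Snora73a are copies of an H/ACA RNA that takes part in the cleavage of the ribosomal precursor, and they lie within the noncoding gene Snhg3. Near-identical copies may share probes, so their values are not independent. Snora73b read 7.26, 7.29 and 7.18 in parental, 6.99, 7.10 and 6.96 in KO, 6.65, 6.86 and 6.70 in KO+WT cells, and 6.42, 6.61 and 6.69 in KO+Mut cells. Its replicates were close, the KO arrays lay between the parental and the add-back arrays, and no add-back array overlapped them. The difference of KO+Mut from parental cells was -0.67 (SE 0.11, adjusted p = 0.0118), which was lost without parental replicate 1 (0.0512), parental replicate 2 (0.0686), KO+Mut replicate 1 (0.0542) or KO+Mut replicate 2 (0.0502). In KO+WT cells it was -0.51 (SE 0.11, adjusted p = 0.0798).

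Snora73a read 8.80, 8.66 and 8.68 in parental, 8.74, 8.57 and 8.31 in KO, 8.14, 8.24 and 8.37 in KO+WT cells, and 8.01, 8.14 and 8.23 in KO+Mut cells. Its add-back arrays overlapped the KO arrays in KO+WT and not in KO+Mut cells. It differed from parental cells by -0.46 in KO+WT and by -0.58 in KO+Mut cells (SE 0.13, adjusted p = 0.0588 for the second).

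The other calls against parental cells had the per-array values given above. Snora74a differed by -1.52 in KO+WT (SE 0.25, adjusted p = 0.0178) and by -1.47 in KO+Mut cells (SE 0.25, adjusted p = 0.0132). Snora62 differed by -1.31 (SE 0.23, adjusted p = 0.0264) and by -1.29 (SE 0.23, adjusted p = 0.019). Snora44 differed by -1.31 in both, with an adjusted p of 0.0622 in KO+WT and 0.0445 in KO+Mut cells (SE 0.28). All of these differences exceeded 1 log2 unit, which is a halving or more of the signal. In KO+WT cells the call of Snora74a was lost without parental replicate 2 (0.0854), parental replicate 3 (0.0889), KO+WT replicate 1 (0.0532) or KO+WT replicate 3 (0.0678). That of Snora62 was lost without parental replicate 1 (0.0944), parental replicate 3 (0.0915), KO+WT replicate 1 (0.0832) or KO+WT replicate 2 (0.0981), and both were lost when only the 6 arrays were fitted (0.0801 and 0.102).

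The calls in KO+Mut cells rested on few arrays in the same way. That of Snora74a was lost without parental replicate 2 (0.0681), parental replicate 3 (0.0714), KO+Mut replicate 1 (0.0563) or KO+Mut replicate 2 (0.0566). That of Snora62 was lost without parental replicate 1 (0.0736), parental replicate 3 (0.0669), KO+Mut replicate 1 (0.0553) or KO+Mut replicate 2 (0.107), and in the fit of the 6 arrays (0.0581). That of Snora44 was kept only without parental replicate 2, and was 0.167 and 0.176 without parental replicates 1 and 3, 0.117, 0.196 and 0.0866 without KO+Mut replicates 1, 2 and 3, and 0.0511 after repeated quantile normalization. In each of these fits the gene was lower in KO+Mut cells.

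KO+Mut compared with KO+WT cells was the add-back comparison with matched handling, and it addressed whether SUMO modification of the 2 proteins matters for these RNAs. No gene of the 78 passed the test, and neither did any other gene: limma called 0.0% of all genes. At an unadjusted p under 0.05 there were 0 of the 78 genes, against 3.04% of all genes. The median log2 difference was 0.04 over the H/ACA, 0.11 over the C/D and 0.07 over the scaRNA genes, against -0.01 over all genes, and 7 of 47 C/D genes were lower in KO+Mut cells. The groups did not overlap for 1 of the 78 genes, Snord90, which was higher in KO+Mut cells, against 3.07% of all genes. The median half-width of the 95% interval was 0.425 log2 units for an H/ACA and 0.473 for a C/D gene, so smaller differences could not be told from 0 for a typical gene. The difference was 0.44 for Snora15 (95% interval -0.22 to 1.10), 0.45 for Snora34 and -0.16 for Snora73b (-0.40 to 0.08). Among C/D genes it was 0.44 for Snord70 (-0.12 to 1.01), 0.46 for Snord58b (-0.21 to 1.13) and -0.20 for Snord123 (-0.48 to 0.08), all with an adjusted p of 1.0.

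The 26 H/ACA genes did not all follow the class. Snora20 read 6.29, 5.19 and 5.33 in parental, 5.46, 5.07 and 5.49 in KO, 4.66, 4.94 and 4.33 in KO+WT cells, and 4.68, 4.78 and 4.81 in KO+Mut cells. Snora61, within Snhg12 like Snora44, read 8.62, 8.74 and 8.81 in parental, 8.78, 8.75 and 8.61 in KO, 8.16, 8.39 and 8.34 in KO+WT cells, and 8.36, 8.46 and 8.53 in KO+Mut cells. Both genes had every add-back array below the others. Snora33, Snora7a and Snora47 were at the other end. Snora47 read 6.27, 5.88 and 5.74 in parental, 5.82, 5.93 and 5.54 in KO, 6.19, 5.62 and 5.95 in KO+WT cells, and 6.07, 6.13 and 5.93 in KO+Mut cells. Its groups overlapped except KO+Mut and KO, where KO+Mut was at or above the highest KO array, and it did not pass any test. Snora33, at 11.97, 11.92 and 11.83 in parental and 12.04, 11.89 and 11.60 in KO+WT cells, overlapped as well.

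Among the C/D genes the differences were smaller and the arrays of a group were further apart. Snord72, which lies within the ribosomal protein gene Rpl37, read 7.38, 6.84 and 7.26 in parental, 7.48, 6.90 and 7.44 in KO, 6.66, 6.44 and 5.87 in KO+WT cells, and 6.80, 5.81 and 6.88 in KO+Mut cells. The add-back arrays were all below the KO arrays. The difference from KO was -0.95 in KO+WT (SE 0.29, adjusted p = 0.185) and -0.78 in KO+Mut cells (SE 0.29, adjusted p = 0.273). Snord17 read 8.61, 7.91 and 8.32 in parental, 8.47, 8.05 and 8.28 in KO, 7.82, 7.80 and 7.67 in KO+WT cells, and 7.79, 7.83 and 7.92 in KO+Mut cells. Its add-back arrays were below the KO arrays, while KO+Mut replicate 3 was just above the lowest parental array. The differences from KO were -0.50 (SE 0.17, adjusted p = 0.231) and -0.42 (SE 0.17, adjusted p = 0.313).

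Snord90 and Snord69 were the remaining C/D genes of smallest p against KO. Snord90 differed by -0.49 in KO+WT cells (SE 0.17, adjusted p = 0.242) from signals of 1.95, 2.02 and 2.05, and passed the threshold without KO replicate 2 (0.0477). Snord69, within the nucleolar GTPase gene Gnl3, differed by -0.53 in KO+Mut cells (SE 0.22, adjusted p = 0.355).

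Against parental cells Snord19, Snord52 and Snord88a had the smallest p of the C/D class. Snord19, also within Gnl3, read 6.22, 6.48 and 5.83 in parental, 6.02, 5.75 and 5.34 in KO, 5.36, 5.42 and 5.16 in KO+WT cells, and 5.63, 5.33 and 4.91 in KO+Mut cells. Its add-back arrays were below the parental ones and overlapped the KO ones. The difference from parental cells was -0.86 in KO+WT (SE 0.22, adjusted p = 0.131, and 0.0146 with the replicate block) and -0.89 in KO+Mut cells (SE 0.22, adjusted p = 0.0892, 0.00878 with the block and 0.0281 with array weights).

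Snord52 read 6.32, 6.81 and 6.64 in parental, 6.42, 6.30 and 6.37 in KO, 5.75, 6.19 and 5.99 in KO+WT cells, and 5.94, 6.26 and 5.82 in KO+Mut cells. It was the C/D gene whose add-back arrays were all below the others. The difference from parental cells was -0.61 (SE 0.16, adjusted p = 0.146, and 0.0473 with the block) in KO+WT and -0.59 (SE 0.16, adjusted p = 0.138, and 0.045 with the block) in KO+Mut cells. Snord88a differed by -1.14 in KO+WT cells (SE 0.32, adjusted p = 0.171), where KO+WT replicate 1, at 3.70, was far below replicates 2 and 3 at 5.45 and 4.89. Without KO+WT replicate 2 the difference was -1.53 (adjusted p = 0.0413). In KO+Mut cells it was -0.87 (SE 0.32, adjusted p = 0.301, and 0.0247 in the fit of the 6 arrays).

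The C/D genes include 2 that do not guide methylation and are transcribed as genes of their own. Snord118 is needed for maturation of the large-subunit ribosomal RNAs. It read 4.89, 4.65 and 5.59 in parental, 4.77, 4.04 and 5.73 in KO, 4.77, 4.95 and 5.35 in KO+WT cells, and 4.64, 4.26 and 5.70 in KO+Mut cells. Replicate 3 was the highest in each group, and the groups overlapped throughout. Snord13, which guides acetylation of the small-subunit ribosomal RNA, read 11.44, 11.31 and 10.82 in parental, 11.52, 11.20 and 11.17 in KO, 11.41, 10.86 and 11.22 in KO+WT cells, and 11.19, 11.47 and 10.98 in KO+Mut cells. These also overlapped. Neither passed any test.

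The scaRNA genes showed no call in any comparison. Scarna17 read 10.24, 10.34 and 9.83 in parental, 10.46, 10.59 and 9.73 in KO, 10.70, 10.67 and 10.07 in KO+WT cells, and 10.64, 10.62 and 10.24 in KO+Mut cells. Scarna2, which lies in no annotated gene of the table, read 8.16, 8.44 and 8.06 in parental, 8.23, 8.52 and 7.78 in KO, 8.29, 8.38 and 8.09 in KO+WT cells, and 8.53, 8.54 and 8.29 in KO+Mut cells. For both, replicate 3 was the lowest of its group throughout, and all groups overlapped. Scarna6, within the autophagy gene Atg16l1, read 7.12, 7.09 and 6.93 in parental, 7.44, 7.23 and 7.36 in KO, 7.05, 6.95 and 6.55 in KO+WT cells, and 7.34, 6.62 and 6.79 in KO+Mut cells. Its KO+WT arrays were all below the KO arrays, and KO+Mut replicate 1 lay among the KO arrays.

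The difference of Scarna6 from KO was -0.49 in KO+WT (SE 0.18, adjusted p = 0.297) and -0.43 in KO+Mut cells (SE 0.18, adjusted p = 0.355). Scarna10, within the condensin gene Ncapd2, read 8.22, 8.13 and 7.90 in parental, 8.40, 8.35 and 8.29 in KO, 8.29, 8.30 and 7.83 in KO+WT cells, and 8.33, 8.29 and 8.06 in KO+Mut cells. Its KO arrays were above the parental ones and overlapped both add-backs, with a difference of 0.26 between KO and parental cells (SE 0.15, adjusted p = 0.839). Scarna8, within the augmin gene Haus6, read 4.81, 4.73 and 4.36 in parental, 5.01, 4.42 and 4.64 in KO, 4.75, 4.72 and 4.28 in KO+WT cells, and 4.75, 4.77 and 4.04 in KO+Mut cells, and its groups overlapped.

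Because most of these RNAs come from introns, each was set beside its host, the gene whose span in the RefSeq table holds it. Strand was not used for this, since the table gives none for these RNAs. A measured host was found for 63 of the 78, with 49 different hosts, and 11 had a host that was not measured here. The remaining 4 lay in no gene (Scarna2, Snord118, Snord13 and Snord89). A probe set for a snoRNA can also read unspliced host RNA. No host passed the test in any of the 6 comparisons. The median log2 difference from KO over the 49 hosts was -0.09 in KO+WT (2 with an unadjusted p under 0.05) and -0.05 in KO+Mut cells (2 with an unadjusted p under 0.05). Averaged over the hosts, the signal was 8.57 to 8.59 on the parental, 8.55 to 8.59 on the KO, 8.46 to 8.53 on the KO+WT and 8.50 to 8.51 on the KO+Mut arrays, so that the add-back arrays were below the others here too, by a smaller amount than the H/ACA genes.

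Of 24 H/ACA genes with a measured host, 19 had a more negative difference than the host in KO+WT compared with KO and 20 in KO+Mut compared with KO, with a median gap of -0.30 and -0.20 log2 units. Of 36 C/D genes, 26 and 22 did, with a median gap of -0.18 and -0.07. Across the 63 pairs the Pearson correlation of member and host differences was -0.02 in both comparisons, over genes that share arrays and in part hosts. RNAs of one host had different values. Within Snhg12 the KO+Mut differences from KO were -1.12 for Snora44, -0.64 for Snora16a, -0.26 for Snora61 and -0.05 for the C/D gene Snord99, and the host itself was at 0.03 (SE 0.15, adjusted p = 0.96). Those of KO+WT cells were -1.12, -0.53, -0.42 and -0.16 in the same order, and the host was at -0.03. None of these passed the test in the fit without the block.

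**Figure D3:**
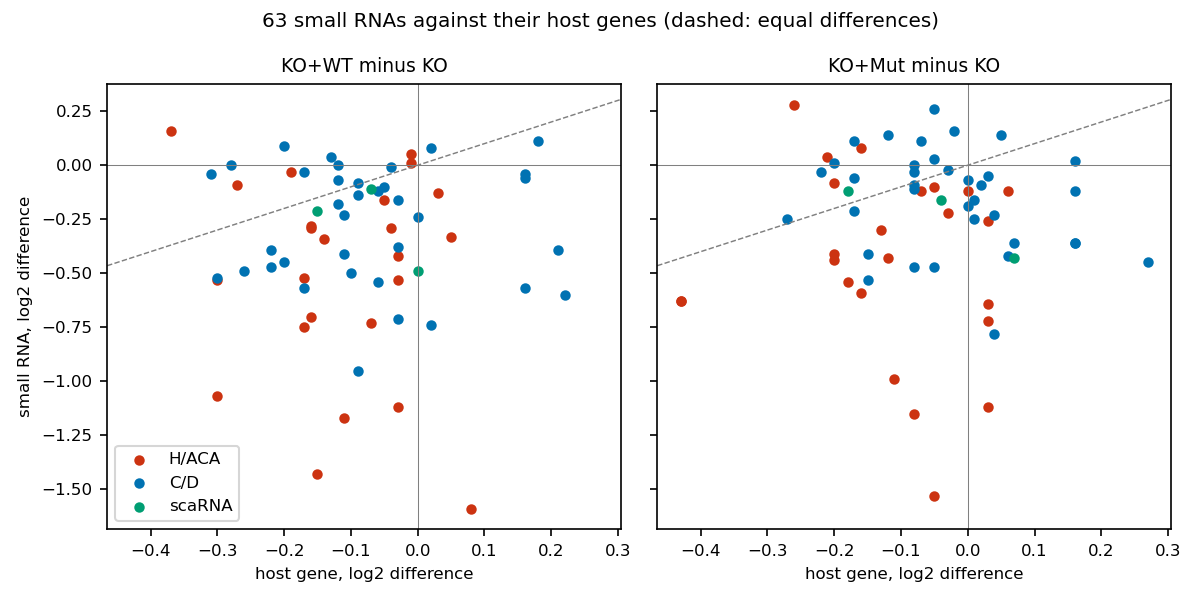
Log2 difference from KO cells of 63 small RNAs (vertical) against that of the host gene (horizontal), for KO+WT (left) and KO+Mut cells (right); the dashed line marks equal differences. The H/ACA genes (red) reach -1.59, while the hosts stay between -0.43 and 0.27.

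The hosts of the 5 H/ACA genes with the clearest differences differed little between groups. Snhg4, host of Snora74a, read 7.80, 8.16 and 7.96 in KO, 8.12, 7.98 and 8.04 in KO+WT cells, and 7.98, 7.92 and 7.85 in KO+Mut cells. It differed from KO by 0.08 and -0.05 (SE 0.12, adjusted p = 0.847 and 0.899), next to -1.59 and -1.53 for Snora74a. Parental cells had higher Snhg4, at 8.28, 8.32 and 8.26, and KO+Mut cells differed from them by -0.37 (SE 0.12, adjusted p = 0.203). Rpsa, host of Snora62, read 11.25 to 11.54 on all 12 arrays and differed from KO by -0.11 and -0.08 (SE 0.12). Snhg12 differed from KO by -0.03 and 0.03, and Cct6a, host of Snora15, by -0.15 and -0.11 (SE 0.15 for both). Snhg3, host of Snora73a and Snora73b, moved more nearly with its RNAs: it differed from parental cells by -0.35 in KO+WT and -0.39 in KO+Mut cells (SE 0.15, adjusted p = 0.433 and 0.347), next to -0.51 and -0.67 for Snora73b.

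**Figure D4:**
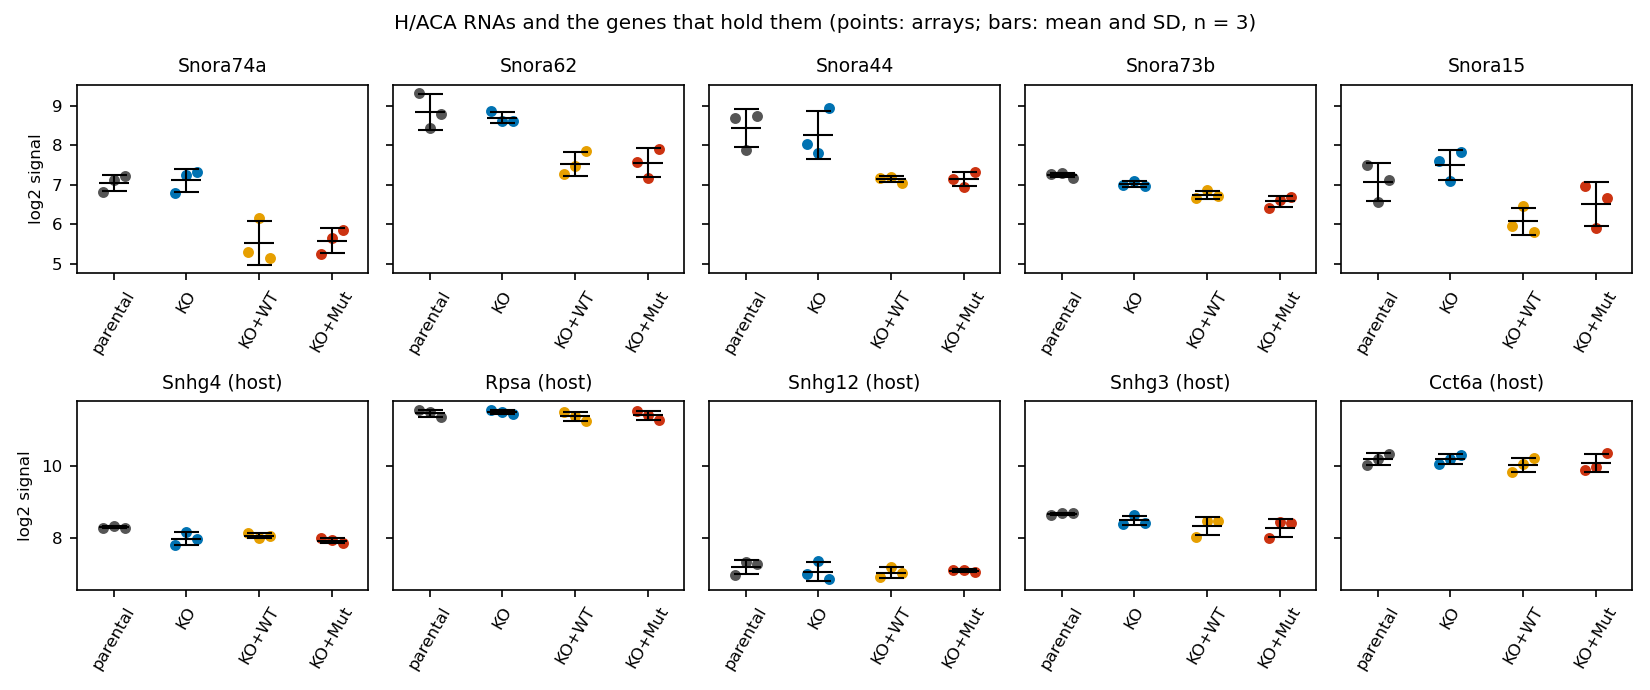
Log2 signals on the 12 arrays of 5 H/ACA genes (top) and of the gene that holds each (bottom); points are arrays, and bars give the mean and SD of 3 arrays. Snora74a falls from means of 7.05 and 7.11 in parental and KO to 5.52 and 5.58 in KO+WT and KO+Mut cells, while its host Snhg4 stays between 7.92 and 8.29.

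Many snoRNA hosts are transcribed from starts of the TOP type, in which the RNA begins with a run of pyrimidines. For that reason the start regions of 4 of these hosts are shown, without that of Snhg4, host of Snora74a. Each is the stretch from 25 bases before to 50 after the RefSeq start, 5′ to 3′ on the gene's strand, in assembly GRCm38.p6, and the capitals mark its longest run of bases that are each C or T on that strand. Rpsa is at chr9:120127741-120127815 (plus strand), Snhg12 at chr4:132308653-132308727 (plus), Snhg3 at chr4:132353637-132353711 (minus) and Cct6a at chr5:129787331-129787405 (plus).
Rpsa: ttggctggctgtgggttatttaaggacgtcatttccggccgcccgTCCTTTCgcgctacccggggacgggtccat
Snhg12: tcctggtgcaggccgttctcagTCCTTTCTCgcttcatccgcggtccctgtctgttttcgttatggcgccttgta
Snhg3: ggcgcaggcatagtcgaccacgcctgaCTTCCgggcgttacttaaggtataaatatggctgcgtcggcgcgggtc
Cct6a: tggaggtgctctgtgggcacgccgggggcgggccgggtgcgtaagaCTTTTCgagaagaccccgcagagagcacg
The longest run was 7 bases in Rpsa, 9 in Snhg12, 5 in Snhg3 and 6 in Cct6a, and 40.0%, 18.6%, 78.0% and 57.0% of all 32851 such windows had a run as long. The run of Snhg12 began 3 bases before the start, that of Snhg3 at base 3 after it, and those of Rpsa and Cct6a at bases 21 and 22. A run of at least 6 was in 37 of 51 windows of host genes (72.5%), against 57.0% of all windows. The 51 windows came from 47 of 60 hosts, measured or not. These counts describe letters anywhere in the windows, the 25 bases before the start included, so neither they nor the marked runs show a TOP start. No measured host RNA passed the test.

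No gene for a protein that carries or assembles these RNAs passed the test. Of the list of snoRNP and Cajal body proteins 27 of 30 genes were measured, and 0 were called in any comparison. The median difference from KO was -0.10 in KO+WT, with 23 of 27 lower, and -0.07 in KO+Mut cells, with 20 lower, and 1 and 0 genes had an unadjusted p under 0.05. Dkc1, the pseudouridine synthase of H/ACA particles, read 9.03, 9.06 and 9.20 in KO, 8.82, 8.96 and 9.03 in KO+WT cells, and 8.89, 8.90 and 9.23 in KO+Mut cells, and these groups overlapped or met. The 4 H/ACA core proteins together averaged 8.75 ± 0.16 in parental, 8.73 ± 0.17 in KO, 8.62 ± 0.19 in KO+WT and 8.63 ± 0.21 in KO+Mut cells (SD, n = 3). In every group this mean rose with the replicate number. Within each number both add-backs were below parental and KO cells. In replicate 1, for example, KO+WT and KO+Mut were at 8.43 and 8.44, and parental and KO at 8.60 and 8.58. The genes of smallest p in KO+WT compared with KO cells were Gemin2, of the complex that assembles spliceosomal particles, at -0.35 (SE 0.15, adjusted p = 0.368) and Coil, the Cajal body scaffold coilin, at -0.20 (SE 0.11, adjusted p = 0.52). In KO+Mut cells they were Nufip1, an assembly factor of C/D particles, at -0.19 (SE 0.11, adjusted p = 0.515) and Coil at -0.17 (SE 0.11, adjusted p = 0.591).

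Genes for ribosome production in the nucleolus gave the same picture, with 23 of 24 measured and 0 past the threshold in any comparison. Their median difference from KO was -0.12 in KO+WT, with 21 of 23 lower, and -0.10 in KO+Mut cells, with 20 lower. Against parental cells the medians were -0.18 and -0.13. Within each replicate number the mean signal of the list was lower in both add-backs than in parental and KO cells. Noc2l, which takes part in large-subunit assembly, had the smallest p against parental cells. It was at -0.45 in KO+WT (SE 0.11, adjusted p = 0.131) and -0.44 in KO+Mut cells (SE 0.11, adjusted p = 0.11).

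Small noncoding RNAs with other symbols were compared to see whether the difference was shared. They were listed by symbol, so RNAs of the H/ACA and C/D kinds under other names, Terc and Rnu3a, are among them. Terc differed from KO by 0.01 in KO+WT and 0.06 in KO+Mut cells (SE 0.11). Rnu3a differed by -0.13 and -0.21 (SE 0.28). Of 10 such genes (Rn7sk, Rnu11, Rnu12, Rnu3a, Rnu5g, Rny1, Rny3, Rpph1, Terc and Vaultrc5), the vault RNA gene Vaultrc5 fell in KO+WT compared with KO cells, by 1.11 (adjusted p = 0.00824). It read 2.83, 3.07 and 2.84 in parental, 3.63, 3.82 and 3.25 in KO, 2.51, 2.28 and 2.58 in KO+WT cells, and 2.66, 3.22 and 2.87 in KO+Mut cells. These are low signals, the highest of them in KO cells, and KO+Mut cells differed from KO by -0.65 (SE 0.17, adjusted p = 0.108). The Y RNA gene Rny3 read 6.23, 6.21 and 6.91 in KO, 5.56, 6.08 and 5.09 in KO+WT cells, and 6.24, 5.55 and 5.70 in KO+Mut cells. The median difference from KO over the 10 genes was -0.14 in KO+WT, with 8 lower, and -0.08 in KO+Mut cells, with 7 lower. Their mean signal was 7.04 to 7.26 on the KO+WT arrays. All of these were below the parental (7.38 to 7.42) and KO arrays (7.36 to 7.52). The KO+Mut arrays, at 7.21 to 7.38, overlapped the others.

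The 483 microRNA precursor genes, which are also short, had median differences from KO of 0.02 in KO+WT and 0.01 in KO+Mut cells, with 225 and 231 of them lower. Their probe sets gave weak signals, with a mean near 3.0 on each array. In KO+WT compared with KO cells Mir3965 rose by 0.69 (adjusted p = 0.0172), and Mir18b and Mir709 fell by 1.36 and 0.68 (adjusted p = 0.0336 and 0.0499). In KO+Mut cells Mir290a, of the cluster that is abundant in embryonic stem cells, rose by 0.89 (adjusted p = 0.0134), and Mir18b fell by 1.28 (adjusted p = 0.0309).

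**Figure D5:**
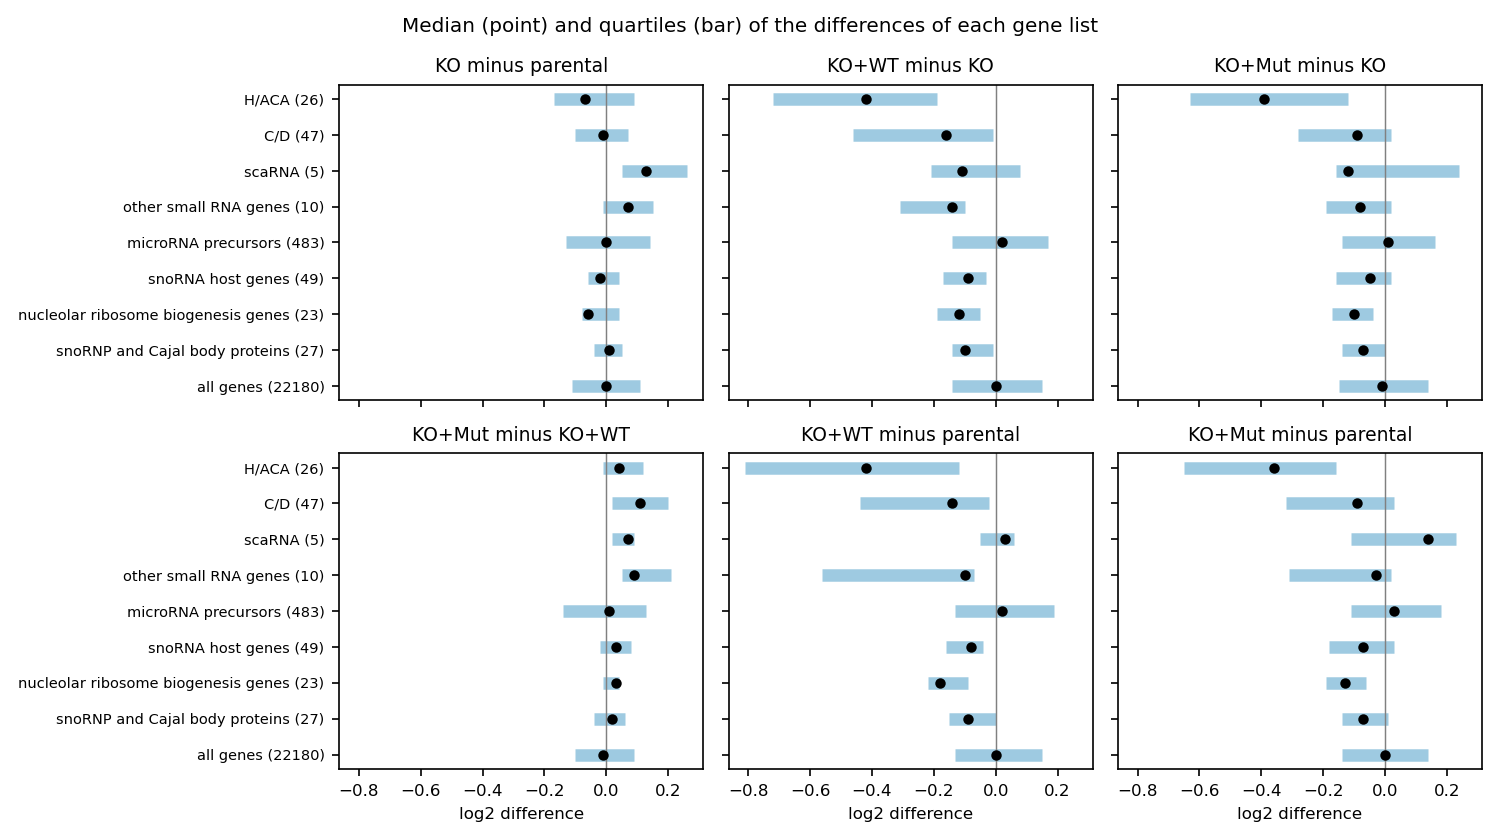
Median (point) and quartiles (bar) of the log2 differences of each gene list in the 6 comparisons, with the number of genes in brackets. The H/ACA median is -0.42 and -0.39 in KO+WT and KO+Mut against KO and -0.42 and -0.36 against parental cells, further from 0 than any other list shown in those panels, and -0.07 in KO against parental cells.

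Markers of 2C-like cells, the cells in which the reporter is active, moved with the same contrasts. Of 12 measured, 8 rose in KO+WT and 10 in KO+Mut compared with KO cells, and their mean signal was 3.49 to 4.09 on the parental, 2.40 to 2.62 on the KO, 5.92 to 7.55 on the KO+WT and 7.05 to 7.98 on the KO+Mut arrays. Their part in the H/ACA result was not tested. In KO compared with parental cells 2 of the 12 markers fell, and the H/ACA mean was 7.17 ± 0.11 and 7.17 ± 0.17 (SD, n = 3). Fibroblast markers averaged 4.82 to 5.13 on all arrays with 0 of 10 called in any comparison. Of 10 primitive endoderm markers 0 were called in the add-backs against KO, and 2 fell in each add-back against parental cells. All 10 were already lower in KO than in parental cells, with a median difference of -0.72 and 0 called. They averaged 6.42 in parental, 5.71 in KO, 5.61 in KO+WT and 5.57 in KO+Mut cells.

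Neither length nor signal ordered the differences strongly. Across the 78 genes the Spearman correlation of the difference from KO with the length of the gene was -0.08 in KO+WT and -0.25 in KO+Mut cells, and that with the mean signal was 0.29 and 0.31, so that weaker genes had somewhat more negative differences. Within the 26 H/ACA genes the correlations with signal were 0.13 and 0.06, and those with length 0.15 and -0.01. These are descriptions across genes that share arrays and, within hosts, transcripts.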

How the data were processed

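RNA from 12 samples was measured on Affymetrix arrays, labelled with the WT Plus kit per the labels' protocols. For each array the authors deposited normalized log2 signals by probe set. The submitters' processing notes name the Transcriptome Analysis Console, while the sources used here give no version, summarization or background correction. The log2 scale is inferred from the values, which span 0.264 to 12.7.

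Of 41345 probe sets, 23521 had 1 symbol in GEO's annotation, 1814 several and 16010 none. The single-symbol probe set of highest mean stood for its gene, giving 22180 genes. All 78 genes were found in RefSeq's GRCm38.p6 table, the source of lengths, hosts and start windows. Hosts were matched without strand, a departure from the plan. Groups were compared by limma 3.58.1 under R 4.3.3 (lmFit, then eBayes, with 1 mean per group and all 12 arrays). The p-values are two-sided, with Benjamini-Hochberg adjustment over all genes in each of 6 comparisons, at a threshold of 0.05 with no fold limit. With 3 arrays per group an exact permutation test cannot go below 0.1. Tables and figures used Python 3.11.15, pandas 2.3.3 and matplotlib 3.10.9. In simulated data of 22180 genes the fit recovered 70 to 81% of genes changed by 1 log2 unit, depending on the comparison. Recovery was not counted for the 78 genes alone. Their limma intervals were wider, with a median half-width of 0.425 for H/ACA and 0.473 for C/D genes, against 0.344 over all genes. The share recovered therefore cannot be taken as that of these classes.

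Samples of equal replicate number deviated together (r = 0.13 to 0.469 for every pair) in all comparisons but those of the add-backs with KO, where replicate 2 was at 0.064 and 0.082. By this rule the numbers were taken to pair the samples in the former only. Samples paired through the parental cells would be paired between KO and add-back cells too, so the split describes correlations and not the design. The labels do not say what the numbers stand for. The main values of all 6 comparisons come from the fit without the block. Alternatives were the replicate block, median centring, repeated quantile normalization, a filter on the lowest 25% of signals, trended robust variances, the 6 arrays compared, the mean of probe sets, array weights and leaving out each array.

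The genes named were those past the threshold, the 3 of smallest p in each class and comparison, all scaRNA genes, list genes past the threshold or otherwise of smallest p, and hosts. Snora16a, Snora20, Snora33, Snora47, Snora61, Snora73a, Snord13, Snord99, Snord118 and genes called only with the block or separated on all 12 arrays were chosen after their values were seen. The genes and lists were chosen with earlier results of these data known.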

Additional observations from a re-analysis of the deposited data

How the results depend on the processing

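In every alternative run, each gene of the 78 that was called was lower in the add-back, and the medians of the H/ACA class stayed between -0.49 and -0.29 in the 4 comparisons of an add-back with KO or parental cells. The numbers of genes called moved more. With the replicate block there were 7 in KO+WT and 4 in KO+Mut against KO, and 8 and 7 against parental cells. Against KO the numbers were not taken to pair the samples, although the correlations were positive there too. The block also raised the share of all genes called lower, to 0.636% and 1.06% against KO and to 0.996% and 1.54% against parental cells. It changed no other count of the 78. KO+WT against KO gave 1 after repeated quantile normalization, and KO+WT against parental cells gave 4 with trended robust variances and 0 in the fit of the 6 arrays. With 1 array left out the counts were 0 to 2 and 1 to 2 against KO, and 0 to 2 and 0 to 3 against parental cells, in KO+WT and KO+Mut. These last fits also had fewer arrays, and the cause of the changed counts was not tested. The share of all genes called was counted for the main fit and the replicate block only. Without it, the counts of the other fits cannot be read as a result about the 78 genes.

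Among genes without a call, the sign turned in a few scaRNA values. With 1 array left out, Scarna17 ranged from -0.04 to 0.39 in KO against parental cells, from -0.05 to 0.42 in KO+WT against KO and from -0.02 to 0.41 in KO+Mut against KO. Between the add-backs Scarna10 ranged from -0.07 to 0.17 and Scarna6 from -0.14 to 0.21, and Scarna6 was at -0.01 with array weights. Scarna10 in KO+WT against parental cells ranged from -0.04 to 0.21 and was at -0.0 after median centring. Of the single-gene values, 695 kept their direction and side of the threshold, 43 lost a call, 18 gained one and 12 reversed. With 3 arrays per group and no detection calls, small differences and weak signals such as Snord90 and Vaultrc5 are the least certain.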
